A study of Mus musculus with 6 samples.

Results

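Mitochondrial fatty acid oxidation was examined through 9 genes taken by symbol, Cpt1a, Slc25a20, Cpt2, Acadvl, Acadl, Acadm, Hadha, Hadhb and Hadh, out of 18169 genes in the table. Poly(A) RNA was sequenced from Hepa 1-6 cells, a mouse hepatoma line labelled as hepatocyte, in 3 Shh libraries and 3 vehicle libraries. Shh is Sonic hedgehog, a secreted ligand, and the comparison asked which transcripts differed when the cells were given it. The labels and methods give no dose, duration or vehicle composition for these libraries. No allele, strain or age is labelled, and all libraries come from 1 cell line. The labels do not say whether the replicates were separate cultures. The study's methods state independent biological repeats for quantitative measurements in general, with weights, serum assays and qRT-PCR as the cases named, and 1 legend counts these cells by mice. P-values here measure the spread between these libraries, which may be technical.

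Long-chain fatty acids are first joined to coenzyme A and then enter mitochondria bound to carnitine, through a shuttle made of an outer-membrane transferase, an inner-membrane carrier and an inner-membrane transferase. In the matrix each turn of beta-oxidation shortens the acyl chain through a dehydrogenation, a hydration, a second dehydrogenation and a thiolytic cleavage. In liver the pathway is known for its rise in fasting, for control by the nuclear receptor Ppara, and for supplying the acetyl-CoA from which ketone bodies are made.

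Transcripts of all 9 genes were measured well above the detection limit, and none passed the test between Shh and vehicle cells. Estimated counts of the 9 genes ran between 177 and 2946 per library, in libraries of 20253781 to 20335463 counts. By edgeR's quasi-likelihood test, 0 of the 9 passed an adjusted p under 0.05, against 0% of the 12286 genes tested. At an unadjusted p under 0.05 the count was 0 of 9 higher, against 4.83% of all genes, and 0 of 9 lower, against 5.56%. Every Shh library lay above every vehicle library for 1 of 9, Hadha, against 6.79% of all genes, and below for 0 of 9, against 8.67%.

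Hepatocyte identity of the cells was mixed when read from their markers. Alb and Afp, the adult and fetal serum albumins, had 19752 to 20644 and 7703 to 8024 counts in Shh libraries, against 19891 to 20346 and 7814 to 8106 counts in vehicle libraries. Ttr, another secreted hepatocyte product, had 5 to 12 counts in Shh libraries and 4 to 9 counts in vehicle libraries. Markers of other liver cells, 13 of 14 measured, summed to 28.5 to 35.0 FPKM with Shh and 29.4 to 32.4 FPKM with vehicle, against 962 to 1005 FPKM and 989 to 1002 FPKM for 8 hepatocyte markers. FPKM divides counts by transcript length and library size, the scale used here to compare genes with each other. Large parts of both marker sums came from single genes, Sox9 at 16.9 to 21.4 FPKM and Alb at 484 to 506 FPKM. Serpina1a, another of the 8 hepatocyte markers, had 0 to 3 counts per library. Shh libraries differed more among themselves than vehicle libraries did. By a chi-square of the counts per degree of freedom, where sampling noise alone gives 1, Shh replicate 1 differed from Shh replicates 2 and 3 by 9.11 and 4.07 but from the vehicle libraries by 2.20 to 2.67, beside 1.71 to 2.30 between vehicle libraries. Shh replicate 1 also had the most counts of Col1a1, a stellate cell marker (440, against 151 to 318 in the other 5 libraries), and of Ptprc, a leukocyte marker (28, against 3 to 8), and the part of these in the results was not tested. Shh replicates 2 and 3 showed a trend with transcript length, strongest in Shh replicate 2. The median log2 difference from the vehicle mean in the shortest quintile of transcripts was -0.03, -0.19 and -0.07 in Shh replicates 1 to 3, and in the longest quintile 0.01, 0.14 and 0.06. Fold changes of the 9 genes are therefore also given after an offset that removes this trend.

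On the FPKM scale the genes fell into steps of level, as drawn in the plot of levels. Hadh, which carries out the second dehydrogenation of short and medium chains, had 77.4, 76.0 and 76.0 FPKM in Shh libraries, against 76.8, 76.0 and 77.5 FPKM in vehicle libraries. Acadl, long-chain acyl-CoA dehydrogenase, had 76.5, 73.0 and 74.6 FPKM with Shh and 75.3, 73.1 and 76.0 FPKM with vehicle, so the ranges of these neighbours overlapped. A second group held Acadm at 32.1 ± 0.90 FPKM, Hadha at 31.0 ± 0.16 FPKM and Acadvl at 30.7 ± 1.77 FPKM in Shh cells, against 30.7 ± 0.69, 28.9 ± 0.45 and 31.8 ± 1.09 FPKM in vehicle cells (SD, n = 3 each). The ranges of these 3 overlapped in Shh cells, whereas in vehicle cells Hadha lay below the range of both others. Below them stood Hadhb, with 19.9 ± 0.32 FPKM in Shh cells and 20.0 ± 0.98 FPKM in vehicle cells. Cpt1a, at 14.8 ± 0.37 FPKM with Shh and 14.3 ± 0.40 FPKM with vehicle, and Cpt2, at 13.8 ± 0.73 FPKM with Shh and 13.7 ± 1.04 FPKM with vehicle, had ranges that overlapped in vehicle cells. Slc25a20 was the lowest of the 9, at 5.59 ± 0.65 FPKM with Shh and 5.80 ± 0.62 FPKM with vehicle. All 3 shuttle genes were below all 6 matrix enzyme genes in every library.

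**Figure D1:**
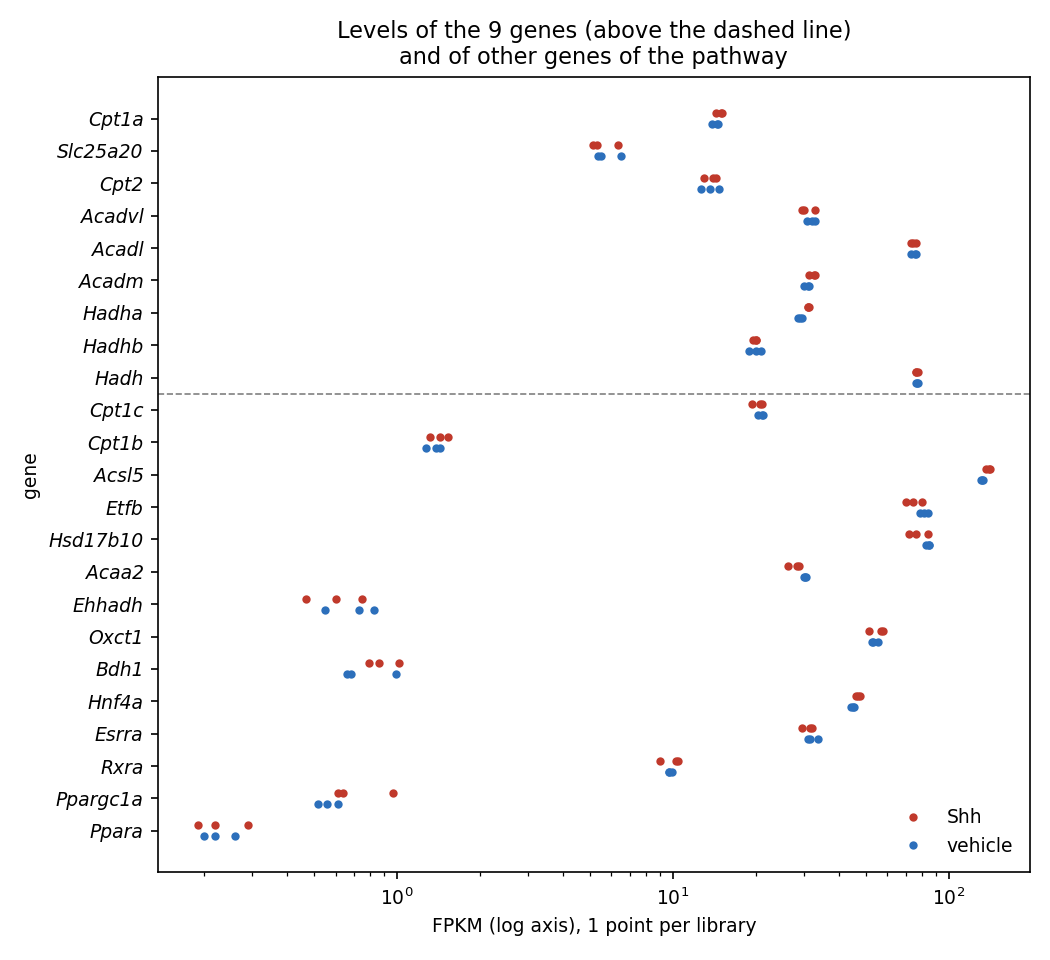
FPKM on a log axis of the 9 fatty acid oxidation genes (above the dashed line) and of other genes of the pathway (below it), 1 point per library, Shh in red above vehicle in blue. Hadh and Acadl lie near 75 FPKM and Slc25a20 near 5 FPKM, while Ppara lies below 0.5 FPKM.

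The promoter windows of the 9 genes were read from RefSeq on GRCm38.p6, from 250 bases before to 50 bases after each start, since control by nuclear receptors is the best known feature of the pathway. All 9 genes had a window. The half-site AGGTCA, the unit from which nuclear receptor elements are built, occurred on either strand in 3 of 9, Cpt1a, Acadvl and Acadm, against 16.3% of 32851 windows. These 3 are shown with the half-site in capitals, which reads TGACCT where it lies on the opposite strand.
Cpt1a (chr19:3323051-3323350, plus strand): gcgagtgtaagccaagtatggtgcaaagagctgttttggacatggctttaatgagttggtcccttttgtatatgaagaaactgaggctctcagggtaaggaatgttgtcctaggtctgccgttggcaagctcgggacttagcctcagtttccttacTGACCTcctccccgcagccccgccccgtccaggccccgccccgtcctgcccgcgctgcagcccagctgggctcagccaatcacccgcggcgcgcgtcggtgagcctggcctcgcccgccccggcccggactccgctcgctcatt
Acadvl (chr11:70015379-70015678, minus strand): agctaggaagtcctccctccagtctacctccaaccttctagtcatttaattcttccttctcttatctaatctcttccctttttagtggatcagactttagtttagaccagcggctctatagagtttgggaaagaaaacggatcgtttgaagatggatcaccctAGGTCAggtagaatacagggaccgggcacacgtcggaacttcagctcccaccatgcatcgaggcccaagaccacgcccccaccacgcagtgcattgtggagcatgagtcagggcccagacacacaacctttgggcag
Acadm (chr3:153944594-153944893, minus strand): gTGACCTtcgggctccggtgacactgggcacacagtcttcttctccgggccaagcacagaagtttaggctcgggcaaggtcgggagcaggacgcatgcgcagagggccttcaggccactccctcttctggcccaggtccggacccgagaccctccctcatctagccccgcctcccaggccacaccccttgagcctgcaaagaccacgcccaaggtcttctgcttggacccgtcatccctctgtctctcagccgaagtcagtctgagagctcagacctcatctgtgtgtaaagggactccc
The direct repeat AGGTCANAGGTCA, searched without mismatch on both strands and containing the half-site, occurred in 0 of 9 windows and in 0.0396% of all windows. The E-box CACGTG occurred in 0 of 9, against 7.15% of all windows. The NRF1 core GCATGCGC occurred in 1 of 9, Acadm, against 2.71% of all windows. A match is a run of letters and says nothing about binding, and no match says only that those letters are not in this window.

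Hadha and Hadhb start head to head on opposite strands, 273 bases apart. Their windows share 228 bases, and 0 other pairs of the 9 share any. The shared stretch lies between the start sites and is shown because the estimates of the 2 genes had opposite signs, though neither passed the test. It is printed on the strand of Hadhb and has 57% G and C.
Hadha and Hadhb shared stretch (chr5:30155003-30155230, plus strand): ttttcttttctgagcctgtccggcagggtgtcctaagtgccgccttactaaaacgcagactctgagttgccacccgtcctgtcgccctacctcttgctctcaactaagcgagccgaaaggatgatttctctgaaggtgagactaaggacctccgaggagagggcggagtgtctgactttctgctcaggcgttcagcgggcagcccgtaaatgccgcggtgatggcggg

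The carnitine shuttle came first in the comparison. Cpt1a encodes the liver-type transferase of the outer membrane, the step at which malonyl-CoA limits the entry of fatty acids. It had 63.5, 61.8 and 60.3 CPM in Shh libraries, against 61.7, 59.3 and 62.0 CPM in vehicle libraries, where CPM is the count relative to the TMM-scaled library size. Shh replicate 1 was the highest library and vehicle replicate 2 the lowest, and the other 4 overlapped. The log2 fold change was 0.02 (SE 0.046, 95% interval -0.08 to 0.12, adjusted p = 0.90), and -0.02 with the length offset. Cpt1a has the longest transcript of the 9, at 4211 bases.

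Slc25a20, the carrier that exchanges acylcarnitine for carnitine across the inner membrane, had 10.8, 8.77 and 8.69 CPM in Shh libraries, against 9.48, 11.2 and 9.15 CPM in vehicle libraries. One library in each group stood high, Shh replicate 1 and vehicle replicate 2, and the others were alike. The log2 fold change was -0.08 (SE 0.110, 95% interval -0.32 to 0.16, adjusted p = 0.822), the widest interval of the 9, at 177 to 224 counts per library. Cpt2, which returns the acyl group to coenzyme A on the matrix side, had 32.4, 32.2 and 29.7 CPM with Shh and 29.4, 31.7 and 34.0 CPM with vehicle. Its lowest and highest values were both in vehicle libraries, and the log2 fold change was -0.01 (SE 0.065, 95% interval -0.16 to 0.13, adjusted p = 0.954).

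The acyl-CoA dehydrogenases carry out the opening step of each turn and differ in the chain length they prefer. Acadvl, the very-long-chain enzyme of the inner membrane, had 64.4, 61.4 and 69.7 CPM in Shh libraries, against 70.9, 69.3 and 65.8 CPM in vehicle libraries. Its lowest values were in Shh replicates 1 and 2, and Shh replicate 3 lay within the vehicle range. The log2 fold change was -0.08 (SE 0.055, 95% interval -0.20 to 0.04, adjusted p = 0.624). The annotation places Acadvl over part of Dvl2 on the opposite strand, and no source used here states stranded counting, so reads of the overlap cannot be told apart. Dvl2, a Wnt pathway protein gene, had a log2 fold change of 0.02 (SE 0.048, adjusted p = 0.906).

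Acadl had 146, 135 and 141 CPM in Shh libraries, against 145, 140 and 145 CPM in vehicle libraries. Shh replicate 2 was the lowest library and Shh replicate 1 the highest, and the log2 fold change was -0.03 (SE 0.043, 95% interval -0.12 to 0.06, adjusted p = 0.834). Acadm, the medium-chain enzyme, had 66.2, 61.0 and 65.2 CPM with Shh and 61.0, 62.8 and 63.3 CPM with vehicle. Shh replicates 1 and 3 were above the vehicle range while Shh replicate 2 was at its lower end. The log2 fold change was 0.04 (SE 0.048, 95% interval -0.06 to 0.14, adjusted p = 0.773).

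Hadha and Hadhb encode the alpha and beta subunits of the mitochondrial trifunctional protein, which performs the last 3 steps of long-chain oxidation. Hadha, the subunit with the hydratase and the dehydrogenase, had 82.7, 81.1 and 82.0 CPM in Shh libraries, against 76.9, 79.1 and 77.7 CPM in vehicle libraries. Every Shh library lay above every vehicle library, the sole case among the 9. The means were 81.9 ± 0.79 CPM with Shh and 77.9 ± 1.12 CPM with vehicle (SD, n = 3 each). The log2 fold change was 0.07 (SE 0.042, 95% interval -0.02 to 0.16, unadjusted p = 0.106, adjusted p = 0.534), which corresponds to a fold of 1.05 with an interval of 0.988 to 1.12. With 3 libraries against 3, complete separation gives an exact two-sided permutation p of 0.1 at the lowest. Garem2, which the annotation lets overlap the end of Hadha on the opposite strand, had 0 or 1 count in every library.

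Hadhb, the subunit with the thiolase, had 40.1, 37.8 and 39.5 CPM in Shh libraries, against 38.3, 42.0 and 40.1 CPM in vehicle libraries. The groups overlapped, with a log2 fold change of -0.04 (SE 0.053, 95% interval -0.15 to 0.08, adjusted p = 0.827). The ratio of Hadha to Hadhb in FPKM was 1.535, 1.597 and 1.546 in Shh libraries, against 1.502, 1.404 and 1.446 in vehicle libraries, without overlap. This ratio was looked at after the values were seen and was given no test. Among all 36 pairs of the 9 genes, 8 had ratios that did not overlap between the groups, and Hadha, Acadl, Acadm and Hadh were each in 3 of these, out of 8 pairs per gene, so this was not particular to Hadha. The pairs share genes and are not independent, and the share over pairs of other genes was not computed. Hadh had 135, 129 and 132 CPM with Shh and 135, 134 and 136 CPM with vehicle, with Shh replicates 2 and 3 below the vehicle range. Its log2 fold change was -0.03 (SE 0.040, 95% interval -0.12 to 0.05, adjusted p = 0.792).

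**Figure D2:**
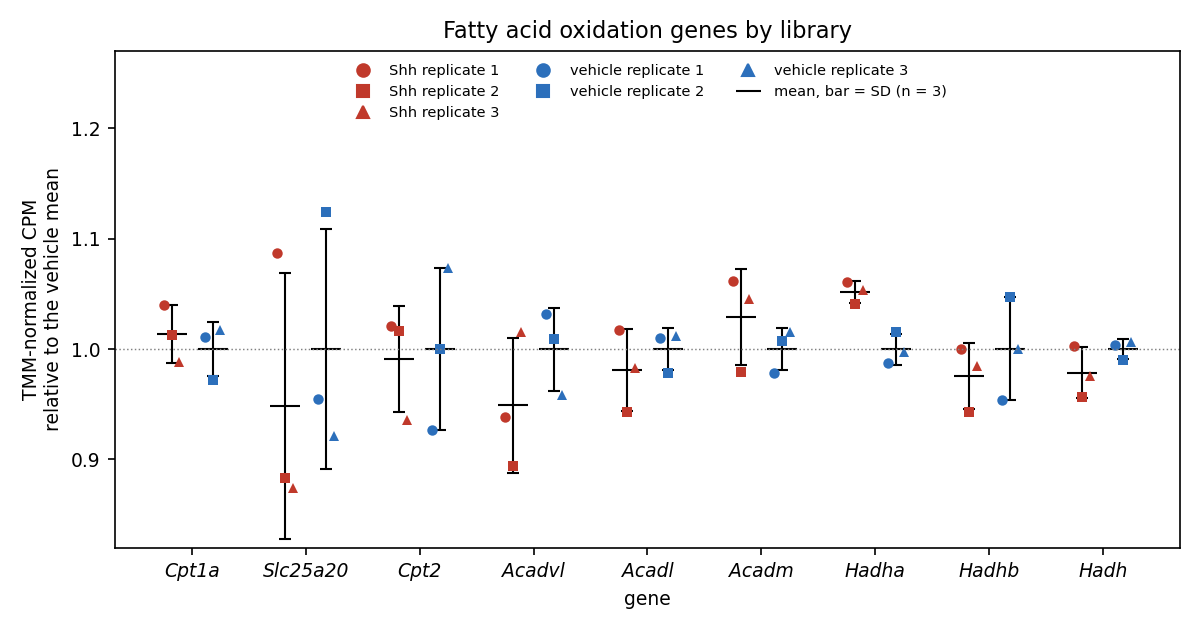
TMM-normalized CPM of each gene relative to its vehicle mean (vertical axis, no unit), 1 symbol per library, Shh in red left of vehicle in blue, with the mean and SD of 3 libraries in black. Hadha is the gene whose groups do not overlap, and Slc25a20, with the fewest counts, spreads the most.

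Seen as a set, 3 of the 9 genes had a log2 fold change above 0 and 6 below 0, with a median of -0.03, beside 0.003 over all genes tested. The median size regardless of sign was 0.036, beside 0.069 over all genes tested and 0.060 over the genes that reached 5 CPM in 3 libraries. All 9 intervals contained 0, and 8 of 9 lay within 0.2 of 0 on the log2 scale, the exception being Slc25a20. With the length offset the log2 fold changes were -0.02 for Cpt1a, -0.04 for Slc25a20, -0.006 for Cpt2, -0.06 for Acadvl, -0.002 for Acadl, 0.06 for Acadm, 0.07 for Hadha, -0.01 for Hadhb and 0.004 for Hadh. Their median was then -0.006, and Cpt1a and Hadh had changed sign. The median transcript length of the 9 was 2013 bases, beside 2690 bases over all genes tested.

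By library, the median log2 difference of the 9 genes from the vehicle mean was 0.03, -0.06 and -0.02 in Shh replicates 1 to 3, against -0.02, 0.01 and 0.01 in vehicle replicates 1 to 3. The 9 genes summed to 641, 608 and 628 CPM in Shh libraries, against 628, 629 and 633 CPM in vehicle libraries. Shh replicate 1 was the highest of the 6 and Shh replicate 2 the lowest, so the vehicle libraries lay inside the range of the Shh libraries. Shh replicate 2 is also the library with the strongest trend with length, and the part of that trend in its lower sum was not tested beyond the offset.

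**Figure D3:**
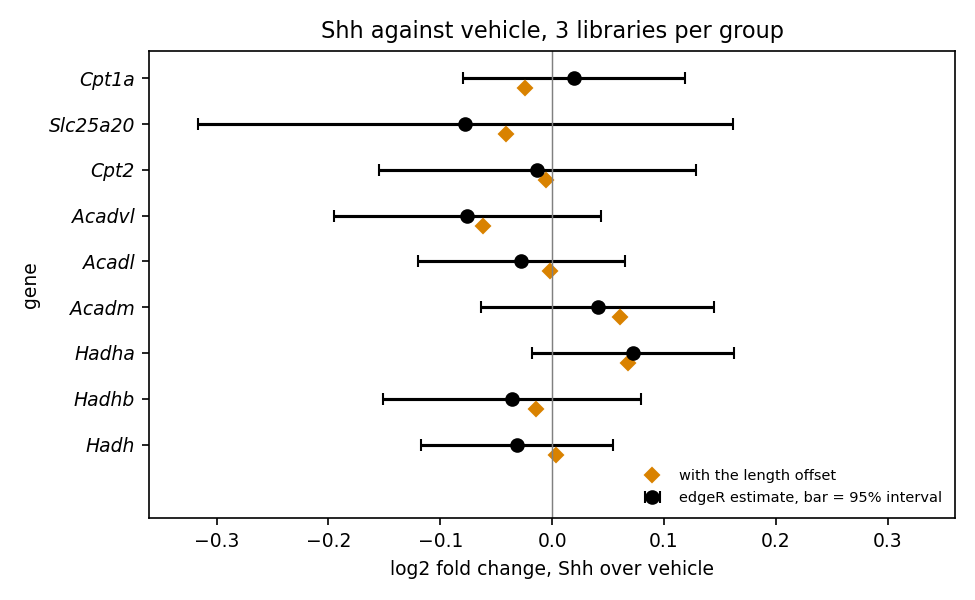
Log2 fold change of the 9 genes, Shh over vehicle, from edgeR (black, with 95% interval) and after the length offset (orange diamonds), 3 libraries per group. All 9 intervals cross 0, and each estimate with the offset lies inside the interval of its gene.

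Cpt1a was not the most abundant Cpt1 transcript per length. Cpt1c, whose product is known from neurons and resides in the endoplasmic reticulum, had 20.7, 21.1 and 19.4 FPKM in Shh libraries, against 21.2, 21.1 and 20.5 FPKM in vehicle libraries, above Cpt1a in all 6. Cpt1b, the muscle-type enzyme, had 1.43 ± 0.11 FPKM with Shh and 1.37 ± 0.08 FPKM with vehicle (SD, n = 3 each). Of the summed FPKM of the 3 genes, Cpt1a took 40.4% with Shh and 39.1% with vehicle, Cpt1c 55.7% and 57.1%, and Cpt1b 3.91% and 3.74%. The depth behind these shares is the count of each gene, 1190 to 1282 per library for Cpt1a and 1037 to 1120 for Cpt1c. By counts Cpt1a was therefore the higher. FPKM depends on the transcript length the authors' counting used, here 4211 bases for Cpt1a and 2598 bases for Cpt1c.

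Other enzymes of the matrix pathway had 0 calls at an adjusted p under 0.05. Of 17 tested, 7 had a log2 fold change above 0 and 10 below, beside 6285 above and 6001 below over all genes tested, and the median was -0.04. With the length offset 9 were above 0 and 8 below, with a median of 0.001. At an unadjusted p under 0.05, 0 were higher, against 4.83% of all genes, and 3 were lower, against 5.56%, Acaa2, the thiolase of medium chains (-0.15), Etfb, a subunit of the electron carrier that takes electrons from the acyl-CoA dehydrogenases (-0.14), and Hsd17b10, a short-chain dehydrogenase (-0.15), each at an adjusted p of 0.469. Acads, the short-chain acyl-CoA dehydrogenase, was at -0.13 (adjusted p = 0.487). With the length offset Acaa2 and Acads were each at -0.10, and the short transcripts of Etfb and Hsd17b10, 855 and 862 bases, at -0.05 each. Acaa2 had 41.7, 37.1 and 40.7 CPM in Shh libraries, against 44.7, 43.8 and 44.1 CPM in vehicle libraries, without overlap. It was the 1 of 17 with every Shh library below every vehicle library, against 8.67% of all genes. None of the 17 had every Shh library above, against 6.79%. Hsd17b10 had the highest level of the list, at 77.4 FPKM with Shh and 84.2 FPKM with vehicle. Without Shh replicate 1, Hsd17b10 passed at a log2 fold change of -0.22 (edgeR, adjusted p = 0.0495), and 195 genes passed in all. With the length offset and all libraries its adjusted p was 0.841.

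Upstream of the shuttle, genes of fatty acid activation and carnitine handling were tested for 11 of 15, with 5 above 0 and 6 below. At an unadjusted p under 0.05, 0 were higher, against 4.83% of all genes, and 0 lower, against 5.56%. Without overlap between the groups, 1 was higher, against 6.79% of all genes, and 0 lower, against 8.67%. Acsl5, an acyl-CoA synthetase, had the highest level, at 139 FPKM with Shh and 132 FPKM with vehicle (log2 fold change 0.05, adjusted p = 0.608). Acsl4 was at 0.11 (adjusted p = 0.496), Acsl3 at 0.08 (adjusted p = 0.583) and the transport protein gene Slc27a4 at -0.09 (adjusted p = 0.595). The offset gave 0.04 for Acsl5, 0.05 for Acsl4, 0.04 for Acsl3 and -0.13 for Slc27a4, and 4 of the 11 were above 0 and 7 below. Acsl6, Slc27a2, Slc27a5 and Bbox1, the last the final enzyme of carnitine synthesis, had 0 to 9 counts per library and were not tested.

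Downstream, ketone body genes were tested for 6 of 7, with 5 above 0 and 1 below. At an unadjusted p under 0.05, 0 were higher, against 4.83% of all genes, and 0 lower, against 5.56%. Without overlap between the groups, 0 were higher, against 6.79% of all genes, and 0 lower, against 8.67%. Under the offset 2 were above 0 and 4 below. Oxct1, which activates ketone bodies for use in tissues other than liver, had the highest level of the list, at 55.3 FPKM with Shh and 53.8 FPKM with vehicle.

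Peroxisomal oxidation, which shortens very long chains, was tested for 13 of 14 genes, with 7 above 0 and 6 below. At an unadjusted p under 0.05, 0 were higher, against 4.83% of all genes, and 0 lower, against 5.56%. Without overlap between the groups, 1 was higher, against 6.79% of all genes, and 0 lower, against 8.67%. Acaa1a and Acot8 were at log2 fold changes of -0.08 and -0.09 (adjusted p = 0.648 and 0.655), and at -0.05 and -0.006 with the length offset, under which 3 of 12 were above 0 and 9 below.

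Among factors that control the pathway, 19 of 20 were tested, with 10 above 0 and 9 below. At an unadjusted p under 0.05, 0 were higher, against 4.83% of all genes, and 0 lower, against 5.56%. Without overlap between the groups, 1 was higher, against 6.79% of all genes, and 1 lower, against 8.67%. Ppara was low, at 0.19, 0.29 and 0.22 FPKM in Shh libraries, against 0.20, 0.22 and 0.26 FPKM in vehicle libraries. Foxa2, a liver pioneer factor, had the highest level of the list, at 48.6 FPKM with Shh and 46.9 FPKM with vehicle. Sirt5, a mitochondrial deacylase, was at a log2 fold change of -0.15 (adjusted p = 0.519), Prkaa1, a catalytic subunit of AMP kinase, at 0.09 (adjusted p = 0.567), Acaca, which makes malonyl-CoA, at 0.07 (adjusted p = 0.599), and Esrra, an orphan nuclear receptor of mitochondrial genes, at -0.07 (adjusted p = 0.655). Under the offset these were -0.10 for Sirt5, 0.04 for Prkaa1, -0.02 for Acaca and -0.05 for Esrra, and 7 of 17 were above 0 and 10 below.

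Targets of Ppara outside oxidation were tested for 7 of 12, and 4 of the others were not found by symbol among the 18169 genes. At an unadjusted p under 0.05, 1 of the 7 was higher, Vnn1, a pantetheinase (0.29, adjusted p = 0.469), against 4.83% of all genes. Another 2 were lower, against 5.56% of all genes. These were Hilpda, a lipid droplet protein (-0.18, adjusted p = 0.469), and Angptl4, an inhibitor of lipoprotein lipase (-0.12, adjusted p = 0.477). Without overlap between the groups, 1 of the 7 was higher, against 6.79% of all genes, and 2 were lower, against 8.67%. Cidec, a lipid droplet protein, was at 0.36 (adjusted p = 0.501), but at 0.09 without Shh replicate 1, which had 227 counts against 114 to 156 in the other 5 libraries. Plin2, which coats lipid droplets, had the highest level, at 173 FPKM with Shh and 178 FPKM with vehicle. Without Shh replicate 1, Hilpda passed at -0.26 (edgeR, adjusted p = 0.0481), and 0 of the 9 oxidation genes passed in that setting. With the length offset and all libraries Hilpda, a transcript of 931 bases, was at -0.09 (edgeR, adjusted p = 0.81). The median log2 fold change of the 7 was -0.07 with all libraries, -0.15 when Shh replicate 1 was left out, 0.131 when it was Shh replicate 2 and 0.265 when it was Shh replicate 3, so its sign rested on single libraries.

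**Figure D4:**
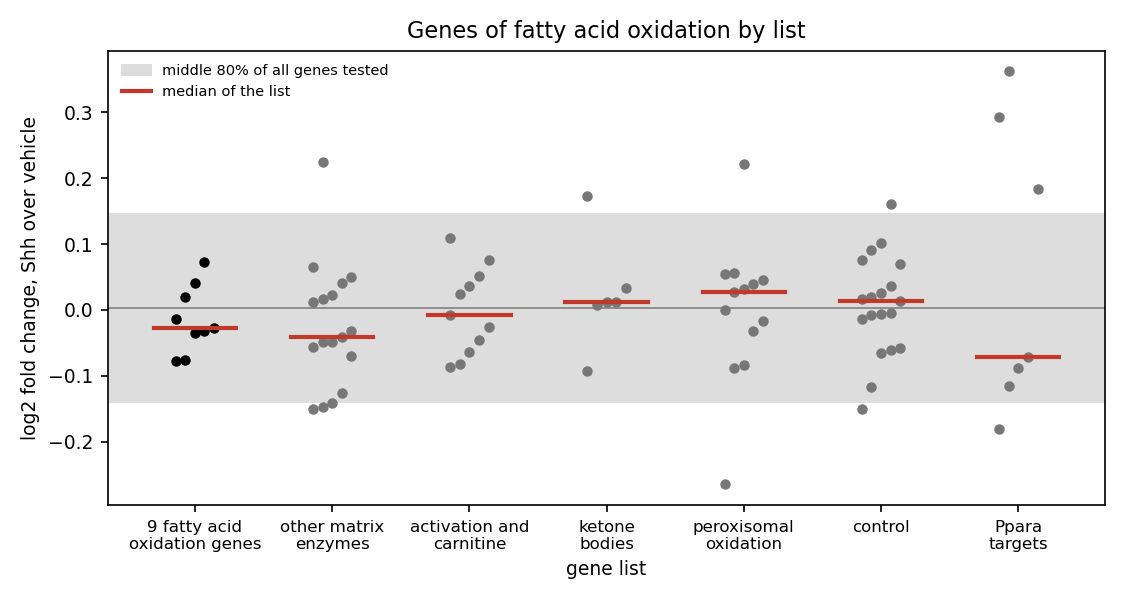
Log2 fold change, Shh over vehicle, of the 9 fatty acid oxidation genes (black) and of the tested genes of 6 lists around them (grey), with each list's median in red and the middle 80% of all genes tested, -0.14 to 0.15, as a band. All 9 oxidation genes lie inside the band, and 0 genes shown passed an adjusted p under 0.05.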

How the data were processed

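RNA was poly(A)-selected and sequenced as single-end reads on the BGISEQ-500. The authors deposited 1 table with estimated counts, which need not be whole (36.4% of those above 0 were not), and FPKM for each library, and 6 TPM columns were not used. Bowtie2, its version not stated, appears in the processing notes of the submitters. Of the counting tool, genome build and strand, the sources used here say nothing. The control columns were read as the vehicle libraries of the same number.

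Estimated counts as deposited were rounded and tested with edgeR 4.0.16 (R 4.3.3): TMM factors, filterByExpr (minimum count 10, total 15), quasi-likelihood test of group and Benjamini-Hochberg adjustment over 12286 genes. Deposited FPKM gave levels between genes and the transcript length of genes of at least 0.5 FPKM. The fit was repeated with DESeq2 1.42.0 (adjusted over the same genes), upper-quartile factors, no filter, at least 5 CPM in 3 libraries, the replicate number as a block, a length offset (spline, 5 degrees of freedom per library), block with offset, and leaving out each library. The offset without Shh replicate 2 was added after seeing the data. The edgeR step was tested on simulated counts. No pair of libraries agreed within sampling noise.

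The members and lists were chosen with earlier results of these data known. The text names all 9 members and, from each list, at most 4 genes of smallest p, the gene of highest FPKM and those near 0, and a few genes it takes are not reported here. Cpt1c, Cpt1b and genes overlapping a member were named after their values were seen. Gene names are those of the table. Overlaps come from GENCODE M21. Motifs were searched in RefSeq windows with Python 3.11.15. Intervals cover 95% and rest on 3 libraries per group.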

Additional observations from a re-analysis of the deposited data

How the results depend on the processing

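None of the 9 genes passed an adjusted p under 0.05 in any of the 14 alternatives. Of 126 fold changes of the 9 genes under the alternatives, 116 kept their sign, and the largest in size was 0.186. Hadha, Acadm, Acadvl and Hadhb kept theirs in 14 of 14, Hadha between 0.06 and 0.08, Acadm between 0.02 and 0.08, Acadvl between -0.13 and -0.03, and Hadhb between -0.07 and -0.002. The sign turned for Cpt1a (-0.0239 with the length offset, with or without the block, -0.00117 without vehicle replicate 2, -0.00306 with the offset without Shh replicate 2), Hadh (0.00356 with the offset, 0.00358 with block and offset), Cpt2 (0.0256 without Shh replicate 3, 0.0418 without vehicle replicate 3), Slc25a20 (0.0141 without vehicle replicate 2) and Acadl (0.00664 with the offset without Shh replicate 2). Among the list genes whose log2 fold change is given above, the sign turned for Acaca and Prkaa1. Acaca was at -0.0173 with the offset, -0.0179 with block and offset, and -0.0193 with the offset without Shh replicate 2. Prkaa1 was at -0.00577 in the last setting. Other list genes were not followed through all alternatives. Some of these also turned with the offset, Oxct1 among them (0.013 to -0.013). Leaving out 1 library, Cpt1a ran between -0.00117 and 0.0371, Slc25a20 between -0.186 and 0.0141, and Cpt2 between -0.0654 and 0.0418. The members' median ran between -0.05 and -0.002 when 1 library was left out. The cause was not tested.

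Over all genes edgeR called 0, with 1277 at an unadjusted p. It called 1 without the filter, 1 with the length offset, 5 with block and offset, 2 with the offset without Shh replicate 2, and 0 to 195 when 1 library was left out, the 195 without Shh replicate 1. DESeq2 called 0, with 814 at an unadjusted p, and 6 with its own filter, which left 11671 genes, all 9 members among them, without an adjusted p. Adjusting DESeq2 over the same genes as edgeR was chosen after seeing the data.

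The replicate block called 0 genes and 0 of the 9. Same-numbered libraries correlated at -0.0301, -0.067 and 0.124 and 2 of 6 correlated best with their own number, so the numbers were not taken as pairs. Slc25a20 had the fewest counts and the widest interval of the 9, and the cause of that width was not tested. In the edgeR fit over 12286 genes, with all libraries and no block or offset, the intervals of the other 8 genes lay within 0.2 of 0. Intervals under the alternatives are not given.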
